A study of Mus musculus with 6 samples.

Results

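The genes described here are 42 genes that neutrophils are known to use, read in the lungs of LPS-injected mice that received saline or recombinant human thrombomodulin (rhTM). They were chosen by name, for the product they encode. No measured value entered the rule for choosing genes, but earlier results of these data were known when it was set. The list holds 4 genes of the azurophil granules, 9 of the specific granules and secreted proteins, 4 of the NADPH oxidase, and 10 receptors. A further 5 are surface and adhesion molecules, and 10 are enzymes, inhibitors and activation genes. On the array, 40 of the 42 were matched to a probe by accession, among 22911 genes matched in all. Ly6g, the surface antigen by which mouse neutrophils are usually recognised, and Olfm4, a specific granule protein, were not matched and have no value here. All 40 measured genes were well above background on all 6 arrays, so none entered the comparison through 1 group alone, and all 40 were among the 16370 genes tested.

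Neutrophils are short-lived blood leukocytes that are filled with ready-made granules. Azurophil granules form first, in the promyelocyte, and hold myeloperoxidase and serine proteases. Specific and gelatinase granules form later and hold lactoferrin, the cathelicidin precursor and metalloproteinases. RNA for azurophil proteins is therefore largely made in bone marrow, whereas mature neutrophils in tissue still carry RNA for receptors, the NADPH oxidase and several inhibitors. In endotoxaemia, neutrophils collect in the capillaries of the lung, where integrins hold them to the vessel wall. Many of these genes are not used by neutrophils alone: Lyz2, Cybb and Itgam are also made by macrophages, and Slpi, Anxa1 and Chil1 also by airway epithelium or macrophages. In bulk lung RNA, fewer neutrophils and less RNA per neutrophil cannot be told apart.

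All 6 mice were male C57BL6, 10 weeks of age, starved for 16 h and then injected i.p. with LPS at 20 mg per kg. At 3 h and again at 24 h after LPS, 3 of them received saline and 3 received rhTM, a soluble form of the endothelial receptor that binds thrombin and speeds the activation of protein C. Lungs were taken 30 h after LPS, and the RNA of each mouse was read on its own 1-colour Agilent array, so n = 3 for each group. No unchallenged lung is among these arrays, so no response to LPS itself can be read from them.

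Signals are given as multiples of the array's 75th percentile, which itself lay between 675 and 850 on the 6 arrays. Levels of different genes cannot be set against each other, since each probe binds with its own strength. The number of probes well above background ranged from 36243 to 40647 per array, and no spot was saturated. The slope of the spike-in controls was 0.826 on saline replicate 1 and between 1.07 and 1.09 on the other arrays. Genes that define other lung cells were present on all arrays, including surfactant genes of AT2 cells, secretoglobins of club cells and endothelial genes.

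The deposited files left 1 doubt that touches each value below. The authors also deposited a table of the same signals, and in it saline replicate 1 and rhTM replicate 2 had traded places relative to the scanner files (99.9% of probes equal to the other sample within 0.1%). The scanner files, each tied to 1 sample, were used here, and values by the table's assignment are given beside them. The 6 arrays also came from 2 slides. By the scanner files, slide 2 carried saline replicate 1 and rhTM replicate 3, and slide 1 carried the other 4 arrays. By the table, slide 2 carried rhTM replicates 2 and 3 and no saline array. A further array stood apart for the neutrophil genes, rhTM replicate 1, as described below.

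Sequences before the annotated start are shown for 5 of the genes described below. Elane and Itgam stood apart on the same pair of arrays, Prtn3 lies next to Elane in the genome, and Ngp and Ltf stand for the specific granule. Each is the 150 bases before the gene's start in RefSeq, assembly GRCm38.p6, on the plus strand, printed 5′ to 3′. Capitals mark a match to the core letters bound by PU.1 (GAGGAAG) or by C/EBP factors (TTGCNNAA), myeloid transcription factors, on either strand.
Elane (chr10:79886162-79886311): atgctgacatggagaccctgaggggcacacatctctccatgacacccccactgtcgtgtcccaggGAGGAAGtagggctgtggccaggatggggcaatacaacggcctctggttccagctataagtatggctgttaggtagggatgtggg
Prtn3 (chr10:79879517-79879666): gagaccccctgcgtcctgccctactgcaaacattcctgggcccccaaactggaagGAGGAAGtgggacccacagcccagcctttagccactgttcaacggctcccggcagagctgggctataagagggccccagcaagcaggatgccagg
Itgam (chr7:128062490-128062639): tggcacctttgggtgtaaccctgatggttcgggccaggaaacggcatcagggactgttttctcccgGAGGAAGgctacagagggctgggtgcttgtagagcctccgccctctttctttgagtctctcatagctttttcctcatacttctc
Ngp (chr9:110419658-110419807): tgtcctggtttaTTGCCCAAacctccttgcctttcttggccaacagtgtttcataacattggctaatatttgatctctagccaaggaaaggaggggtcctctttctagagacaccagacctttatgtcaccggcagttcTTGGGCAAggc
Ltf (chr9:111019142-111019291): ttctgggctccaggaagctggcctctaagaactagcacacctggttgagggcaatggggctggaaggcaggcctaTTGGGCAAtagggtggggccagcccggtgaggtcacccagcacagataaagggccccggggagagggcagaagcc

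Counted back from the start, where −1 is the last base before it, the PU.1 letters began at position −85 in Elane, −95 in Prtn3 and −84 in Itgam. The C/EBP letters began at positions −138 and −11 in Ngp and at −75 in Ltf. Over the 250 bases before the start, a RefSeq sequence was given for 36 of the 42 genes. The PU.1 letters were found in 12 of these 36, or 33.3%, against 10.4% of 27025 promoters. The C/EBP letters were found in 8 of 36, or 22.2%, against 9.55% of all promoters. Both were found in 1 of the 36, Ly6g, which has no measured value, and in 0.936% of all promoters. The PU.1 letters were found before Elane and Itgam, which were high on both arrays of slide 2. They were also found before Ctsg, Pglyrp1 and Ltb4r1, which were low there, and before Prtn3 and Mpo, which did not separate by slide. These matches describe letters and do not show binding, and a link to the slides was not tested.

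Across the whole set, no gene passed the test between rhTM-treated and saline-treated lungs. By limma with Benjamini-Hochberg adjustment over 16370 genes, 0 of 40 passed an adjusted p of 0.05 in either direction, as did 0.0% of all genes, and the adjusted p of each of the 40 was 1.00. At an unadjusted p under 0.05, limma gave 0 of the 40, against 306 genes or 1.87% of all, and the methods' t-test also gave 0, against 2.08% of all. The methods' thresholds of 2-fold or 0.5-fold with p under 0.01 took 0 of the 40, against 0.0367% of all genes.
The mean was higher with rhTM for 24 of the 40 genes (60%, against 50.7% of all genes) and lower for 16, whereas under quantile normalization it was higher for 18 of 40 (45%, against 46.7%). The median log2 difference, rhTM minus saline, was 0.048 over the 40 and 0.0026 over all genes, with an SD of 0.141 between arrays of a group, and it was −0.0063 under quantile normalization. For 0 of the 40 did the 3 rhTM arrays lie above the 3 saline arrays without overlap (2.95% of all genes), and for 0 did they lie below (2.57%).

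**Figure D1:**
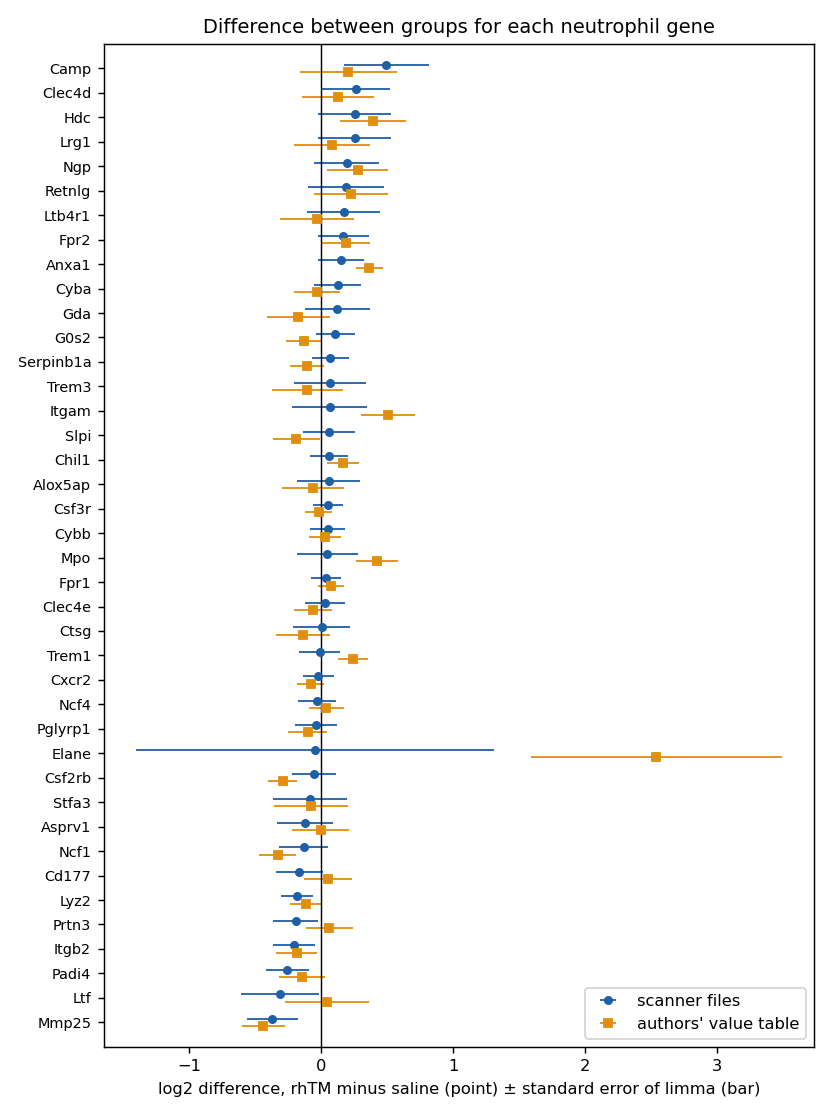
Log2 difference between rhTM and saline (x axis, point) with limma's standard error (bar) for each of the 40 genes (y axis), by the scanner files in blue and by the authors' value table in orange. By the scanner files, differences ran from −0.37 for Mmp25 to 0.49 for Camp, and the bar of Elane is the widest because 1 array of each group stood far above the others.

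The direction of that count rested on single arrays, above all on rhTM replicate 1. It was the highest of the 6 arrays for 24 of the 40 genes, against 29.8% of all genes, and the lowest for 1. On it, 82.5% of the 40 lay above their own mean over the 6 arrays (51.6% of all genes), with a median log2 deviation of 0.217. The array of rhTM replicate 3 went the other way, with 20.0% of the 40 above their mean (45.1% of all genes). Its median deviation was −0.170, and it was the lowest array for 16 of the 40. The medians of the other 4 arrays lay between −0.084 and 0.031. Of these 4, saline replicate 1 was lowest, the array that shares slide 2 with rhTM replicate 3. The 2 ends of the range were thus held by mice of the same group. Without rhTM replicate 1, the mean was higher with rhTM for 11 of the 40 genes (50.1% of all genes) and the median difference was −0.080, and limma again called 0. Without saline replicate 1, the array with the low spike-in slope, the mean was higher for 19 of the 40 (48.9% of all genes) and the median difference was −0.013.
Markers of other cells also stood apart on rhTM replicate 1. The summed signal of 6 platelet genes was 27.7 times the 75th percentile there and 10.5 to 14.9 on the other 5 arrays, mostly through Pf4, platelet factor 4. The sum of 4 erythroid genes was 875 on that array and 598 to 783 on the others. The sum of 8 monocyte and tissue macrophage genes was lowest there, at 51.7, against 59.9 to 74.7. Of these 8 genes, 1 had a higher mean with rhTM (50.7% of all genes). Without overlap, 3 (C1qa, C1qb and Ccr2) lay below saline, as did 2.57% of all genes. By the table, 2 of the 8 had a higher mean (46.0% of all genes). Then 0 lay below without overlap (12.0%) and 1, Ms4a7, lay above (9.68%). The part of blood content in the values of rhTM replicate 1 was not tested.

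**Figure D2:**
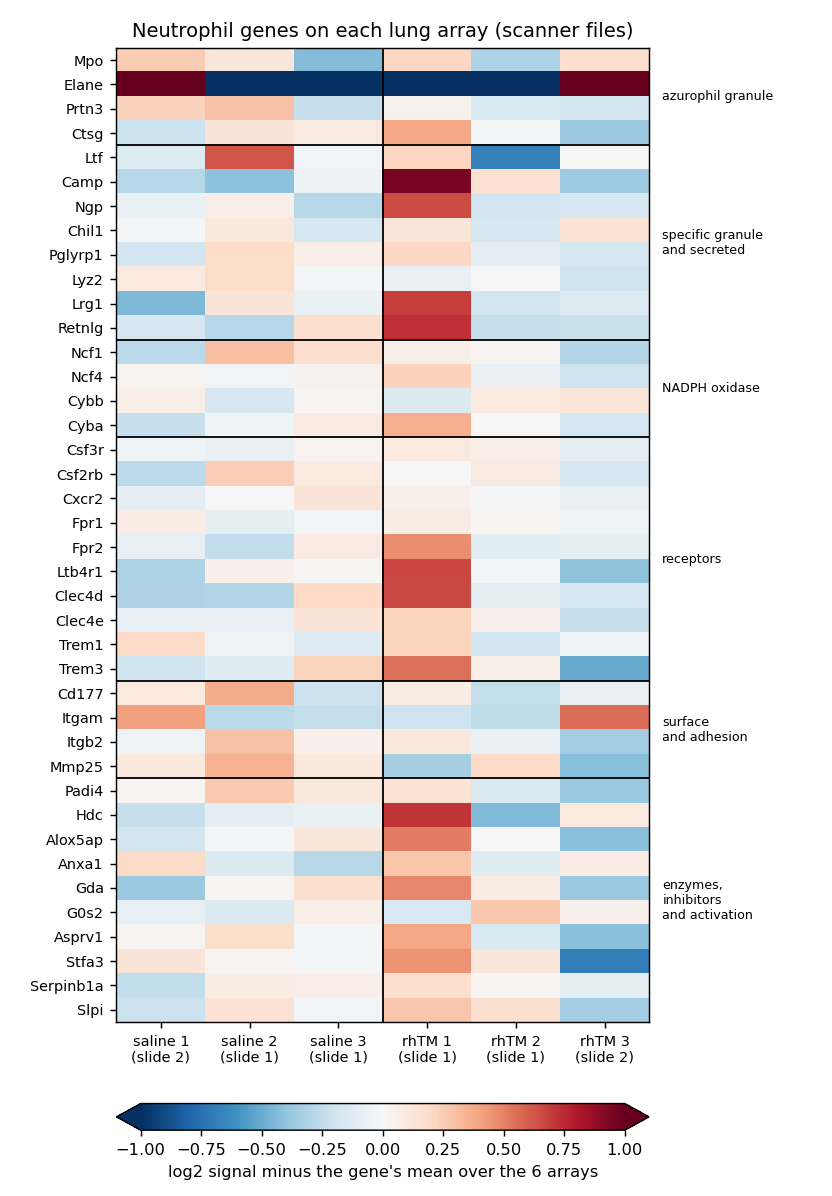
Log2 signal of each of the 40 genes (rows, grouped by role) on each array (columns, with its slide), as the difference from the gene's own mean over the 6 arrays. Colour is limited at −1 and 1, which only Elane exceeds; most rows are red on rhTM replicate 1, and Elane and Itgam are red on both arrays of slide 2.

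**Figure D3:**
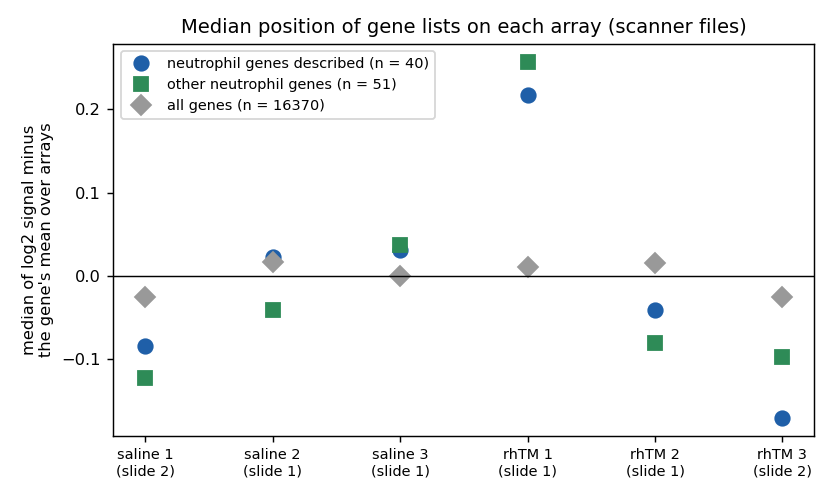
Median over genes of the log2 difference from the gene's own mean (y axis) on each array (x axis), for the 40 genes (blue circles), 51 other neutrophil genes (green squares) and all 16370 genes (grey diamonds). Both neutrophil lists are highest on rhTM replicate 1, at 0.217 and 0.257.

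Among the azurophil granule genes, Elane behaved unlike its neighbours. Elane encodes neutrophil elastase, the serine protease that digests elastin. Its signal was 21.0, 1.73 and 1.38 times the 75th percentile in saline replicates 1, 2 and 3, and 1.64, 1.43 and 19.5 in the rhTM replicates. Both arrays of slide 2 were high, 1 of each group, and the lower of them was 11.3-fold above the highest array of slide 1. The groups overlapped, and the log2 difference was −0.047 (SE 1.36, limma adjusted p = 1.00). Within slide 1, with 2 arrays in each group, it was −0.016, and within slide 2, with 1 in each, −0.11. By the table's assignment both high arrays belong to rhTM, which gave a difference of 2.54 (SE 0.954, limma adjusted p = 0.337, 0.0% of 16320 genes called), and within slide 1 it was then 0.12. Over all genes, 13.0% were above slide 1 on both arrays of slide 2. Sums of other cell markers also stood apart on these arrays: 7 AT2 genes at 1775 and 1656, against 1288 to 1405 on slide 1. The others were 5 club cell genes at 952 and 1038, against 745 to 922, and 4 B cell genes at 2.59 and 3.71, against 4.51 to 4.77. For 5 mast cell and basophil genes the sum was 0.538 and 0.583, against 0.390 to 0.477. A sum weighs its brightest genes most, such as Sftpc and Scgb1a1, and not every listed gene followed its sum. Napsa of the AT2 list was 16.7 and 14.3, against 16.2 to 22.4. Scgb3a1 of the club cell list was 154 and 223, against 175 to 246. Ms4a1 of the B cell list was 0.331 and 0.564, against 0.271 to 0.512. The part of these other cells in the values of Elane and Itgam was not tested. Elane was read by 1 probe, so no second probe was at hand to compare.
Mpo encodes myeloperoxidase, which makes hypochlorous acid from hydrogen peroxide. Its signal was 0.340, 0.308 and 0.211 in saline and 0.330, 0.230 and 0.320 in rhTM replicates 1, 2 and 3. The 2 groups covered nearly the same range, with a log2 difference of 0.045 (SE 0.231). By the table, the 3 rhTM arrays lay above the 3 saline arrays, at a difference of 0.42 (SE 0.158, limma adjusted p = 0.335; exact two-sided permutation p = 0.10, the smallest that 3 against 3 allows).
Prtn3 encodes proteinase 3 and stands beside Elane on chromosome 10, with no protein-coding gene between them in RefSeq. It did not share the slide pattern: its highest array was 1.44-fold above its lowest, against 15.2-fold for Elane. Its log2 difference was −0.19 (SE 0.172). Ctsg, which encodes cathepsin G, had the smallest difference of the set, 0.0026 (SE 0.215), and was below slide 1 on both arrays of slide 2.

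**Figure D4:**
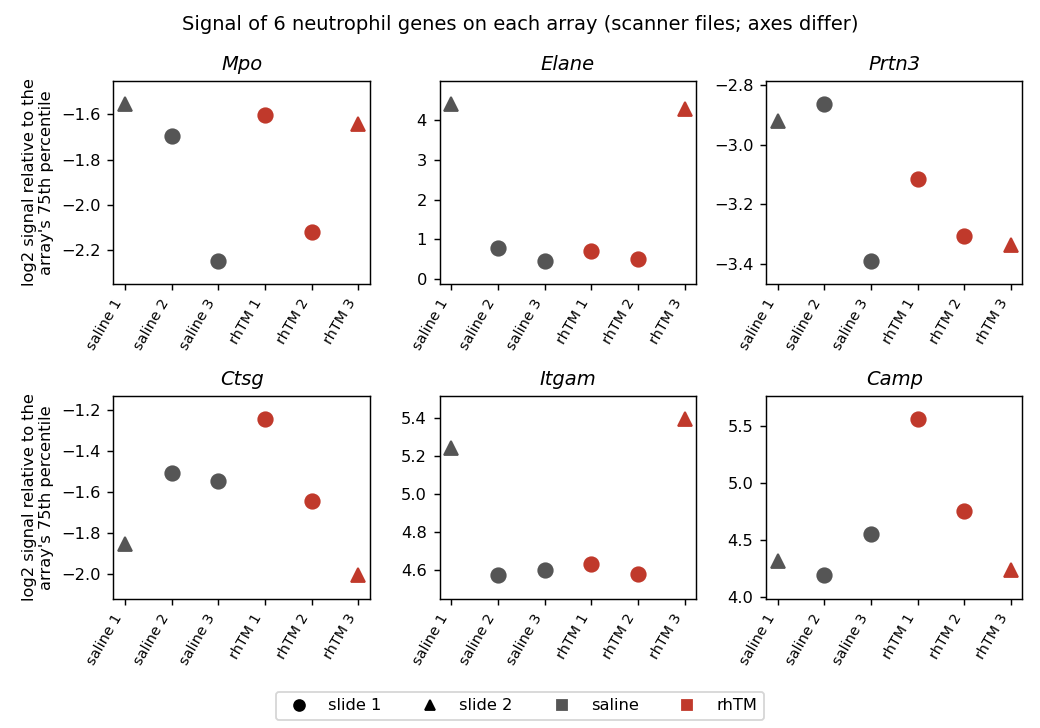
Log2 signal relative to the array's 75th percentile (y axis, a separate scale for each gene) on each array (x axis) for Mpo, Elane, Prtn3, Ctsg, Itgam and Camp, in grey for saline and red for rhTM, with circles for slide 1 and triangles for slide 2. The 2 triangles of Elane and of Itgam stand above all circles, those of Ctsg below, and those of Mpo, Prtn3 and Camp do not separate from the circles.

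The genes of the specific granules and secreted proteins had the largest positive difference of the set and among the largest negative. Of the 8 measured, 5 had a higher mean with rhTM, 0 passed the test, and their median log2 difference was 0.12. Camp encodes the precursor of the cathelicidin peptide, which permeabilises bacterial membranes. Its signal was 20.0, 18.3 and 23.5 in saline and 47.0, 27.0 and 18.9 in rhTM replicates 1, 2 and 3. The mice of rhTM replicates 1 and 2 lay above all saline mice, and the mouse of replicate 3 lay among them. The log2 difference was 0.49 (SE 0.322, limma adjusted p = 1.00), it was 0.78 within slide 1 and −0.080 within slide 2, and by the table it was 0.20.
Ltf encodes lactoferrin, which withholds iron from bacteria. Its signal was 13.5, 23.0 and 14.6 in saline and 17.3, 9.34 and 14.8 in rhTM replicates 1, 2 and 3. A saline mouse was highest and an rhTM mouse lowest, and the log2 difference was −0.31 (SE 0.294). By the table's assignment it was 0.046. Lyz2 encodes lysozyme, which cleaves the bacterial cell wall. Its signal was 49.2, 52.2 and 45.4 in saline and 43.6, 45.8 and 40.1 in rhTM. The groups overlapped only through saline replicate 3 and rhTM replicate 2, which differed by little, and the log2 difference was −0.18 (SE 0.120, limma adjusted p = 1.00).
The other genes of this group were Ngp, a cathelicidin-related granule protein (0.19), Retnlg, a resistin-like secreted protein (0.19), Lrg1, a leucine-rich glycoprotein (0.25), Chil1, a chitinase-like protein (0.056), and Pglyrp1, which binds peptidoglycan (−0.039). For Ngp, Retnlg and Lrg1 the highest array was again rhTM replicate 1, between 1.92-fold and 2.20-fold above the lowest. Chil1 varied 1.25-fold over all arrays and Pglyrp1 1.32-fold.

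The NADPH oxidase is the enzyme of the respiratory burst, in which electrons are passed to oxygen to form superoxide. Its 4 measured subunits differed little between groups, with a median log2 difference of 0.0078 and 2 of 4 higher. The membrane subunits were Cybb, the catalytic chain, with a log2 difference of 0.050 (SE 0.133), and Cyba, its partner, with 0.12 (SE 0.176). The cytosolic subunits were Ncf1, the organiser, with −0.13 (SE 0.188), and Ncf4 with −0.035 (SE 0.144). Cybb varied least, with its highest array 1.22-fold above its lowest, and was 1.91, 1.62 and 1.85 in saline and 1.65, 1.95 and 1.98 in rhTM. Cyba reached 125 on rhTM replicate 1, against 82.7 to 103 on the other arrays. Further probes gave another sign for Cybb (−0.19) and for 1 of 3 probes of Ncf1 (0.21).

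The 10 receptors had a median log2 difference of 0.045, with 7 of 10 higher and 0 past the test. Csf3r is the receptor of G-CSF, which drives neutrophil production. It was among the steadiest genes of the set, 114, 111 and 120 in saline and 125, 122 and 110 in rhTM, with a log2 difference of 0.052 (SE 0.115). Cxcr2, the receptor for neutrophil-attracting CXC chemokines, varied 1.17-fold over the 6 arrays, with a difference of −0.021. Fpr1, a receptor for bacterial formyl peptides, varied 1.13-fold, with a difference of 0.037. Its genomic neighbour Fpr2, a related receptor, reached 159 on rhTM replicate 1 and lay between 97.3 and 122 elsewhere.
Clec4d, a C-type lectin that senses microbial glycolipids, had the largest difference among the receptors. Its signal was 12.9, 13.0 and 18.3 in saline and 25.1, 14.8 and 14.2 in rhTM replicates 1, 2 and 3. A single rhTM mouse lay above the saline range and the other two lay within it, with a log2 difference of 0.26 (SE 0.261). Clec4e, the neighbouring lectin gene, differed by 0.028. Ltb4r1, the receptor of leukotriene B4, was 7.58 on rhTM replicate 1 and 3.61 to 4.93 on the other arrays, with a difference of 0.17. The neighbouring activating receptors Trem1 and Trem3 differed by −0.011 and 0.065.
Csf2rb is the shared signalling chain for GM-CSF, IL-3 and IL-5. Its signal was 10.4, 14.9 and 13.4 in saline and 12.5, 13.3 and 11.2 in rhTM, and all rhTM mice lay within the saline range (log2 difference −0.057, SE 0.166). By the table, the 3 rhTM arrays lay below the 3 saline arrays, at −0.29 (SE 0.112, limma adjusted p = 0.342). The other 2 probes of Csf2rb gave 0.087 and 0.76 by the table, so the direction depended on the probe.

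The surface and adhesion molecules had a median log2 difference of −0.19, and 1 of the 4 measured was higher with rhTM. Itgam and Itgb2 encode the chains of the integrin Mac-1, with which neutrophils adhere to endothelium and take up opsonised particles. Itgam was 37.9, 23.8 and 24.3 in saline and 24.8, 24.0 and 42.1 in rhTM, and as with Elane the high arrays were those of slide 2, the lower of them 1.53-fold above slide 1. The log2 difference was 0.064 (SE 0.283), with 0.022 within slide 1 and 0.15 within slide 2. By the table it was 0.51 (SE 0.202, limma adjusted p = 0.346), without overlap, and 0.050 within slide 1. A second, dimmer probe of Itgam gave −0.042 by the table.
Itgb2 did not follow Itgam. Its signal was 7.37, 9.25 and 7.84 in saline and 8.10, 7.21 and 5.95 in rhTM, with a log2 difference of −0.21 (SE 0.162) and overlap of the groups. Mmp25, a metalloproteinase anchored in the leukocyte membrane, had the smallest p of the set. Its signal was 0.239, 0.284 and 0.240 in saline and 0.178, 0.256 and 0.166 in rhTM replicates 1, 2 and 3. The mice of rhTM replicates 1 and 3 lay below all saline mice, and replicate 2 lay within their range. The log2 difference was −0.37 (SE 0.193; limma unadjusted p = 0.097, adjusted p = 1.00), −0.29 within slide 1 and −0.53 within slide 2, and −0.44 by the table (adjusted p = 0.336). Cd177, a glycoprotein of the neutrophil surface, differed by −0.17 (SE 0.179).

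The 10 enzymes, inhibitors and activation genes had a median log2 difference of 0.066, with 7 of 10 higher and 0 past the test. Padi4 converts arginine to citrulline in histones, a step in the release of neutrophil extracellular traps. Its signal was 3.15, 3.72 and 3.33 in saline and 3.41, 2.80 and 2.40 in rhTM. In rhTM replicates 2 and 3 it was below all saline mice, and in replicate 1 it was within their range. The log2 difference was −0.26 (SE 0.162; limma unadjusted p = 0.160, adjusted p = 1.00), and −0.14 by the table.
Hdc encodes histidine decarboxylase, which makes histamine. Its signal was 12.3, 13.5 and 13.7 in saline and 23.6, 10.6 and 15.4 in rhTM. The rhTM mice lay both above and below the saline mice, and the log2 difference was 0.25 (SE 0.280). Anxa1 encodes annexin A1, a phospholipid-binding protein known from the resolution of inflammation. Its signal was 70.2, 55.4 and 50.6 in saline and 74.5, 56.3 and 64.5 in rhTM, with a difference of 0.15 (SE 0.174). By the table its arrays did not overlap, at 0.37 (SE 0.105, limma adjusted p = 0.314), while a second probe gave −0.014.
The protease inhibitors differed little: Slpi by 0.062, Serpinb1a by 0.069 and Stfa3, a stefin, by −0.082. Stfa3 ranged from 3.24 on rhTM replicate 3 to 7.13 on rhTM replicate 1, so both ends again lay in the rhTM group. Alox5ap, which presents arachidonic acid to the leukotriene pathway, ranged in the same way from 30.2 on rhTM replicate 3 to 57.6 on rhTM replicate 1, with a difference of 0.056. Gda, guanine deaminase, differed by 0.12, G0s2, an inhibitor of triglyceride lipase, by 0.11, and Asprv1, an aspartic protease, by −0.12.

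Taken by the table's assignment, the set gave another picture gene by gene but not as a list. The mean was higher with rhTM for 19 of 40 genes, against 46.0% of all genes, and the median difference was −0.011, against −0.025 over all genes. limma called 0 of 40 after adjustment and gave 6 at an unadjusted p under 0.05, or 15%, against 14.0% of all genes: Mpo, Elane, Itgam and Anxa1 higher, Mmp25 and Csf2rb lower. The groups did not overlap for 3 genes above (Mpo, Itgam and Anxa1; 9.68% of all genes) and 2 below (Csf2rb and Mmp25; 12.0%). Without rhTM replicate 1, the table's assignment let limma call 2 of 40 higher (2.71% of all genes), Elane at 3.75 and Itgam at 0.74 (adjusted p = 0.0174); both remaining rhTM arrays are then those of slide 2. With both exchanged arrays left out, limma called 0 of 40 (0.00608% of all genes, all lower) and gave 1 at an unadjusted p under 0.05 (Mmp25, lower; 7.69% of all genes). The mean was higher for 19 of 40 (48.6%). The groups of 2 then did not overlap for 5 genes above and 4 below, against 20.0% and 21.5% of all genes.
Slide 2 also stood apart from slide 1 for a share of all genes, and the set is read against that share. Both its arrays lay below all arrays of slide 1 for 13 of the 40, or 32.5%, against 19.7% of all genes: Ctsg, Pglyrp1, Ncf1, Cyba, Csf2rb, Cxcr2, Ltb4r1, Clec4e, Trem3, Alox5ap, Gda, Serpinb1a and Slpi. They lay above it for 2 of the 40, Elane and Itgam, against 13.0% of all genes. Within slide 1 the median difference of the 40 was 0.099, with 28 of 40 higher, and within slide 2 it was −0.084, with 13 of 40 higher. With the slide as a block, limma called 0 of 40 by the scanner files. By the table, only 1 rhTM array, replicate 1, lies on slide 1, so the slide block sets that mouse against the saline group. The mean was then higher for 34 of 40 (51.8% of all genes), and 15 of 40 had an unadjusted p under 0.05, all higher (13.9%). After adjustment it called 1 of 40, Ltb4r1, at 0.65 (SE 0.106, adjusted p = 0.0475), against 1.15% of all genes called higher and 1.5% lower, and gave a median of 0.221.

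Pairs of the 40 genes had a higher median correlation over the 6 arrays than pairs of all genes, although most pairs were not closely alike. Over the 780 pairs, the median Pearson r of log2 values was 0.333, against 0.0067 over pairs of every eighth gene tested, and 13.97% of pairs had an r above 0.8, against 6.307%. The 6 arrays share slide and scaling, so this is a description. Ltb4r1 (mean r 0.483 with the other genes of the set), Alox5ap (0.480) and Ctsg (0.473) were closest to the rest. Cybb (−0.457), Itgam (−0.358), Elane (−0.345) and G0s2 (−0.313) ran against it.

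Other genes that neutrophils use, not part of the 42, were read for comparison. In bulk lung RNA, the cells that gave their signal cannot be told apart. Of 52 listed, 51 were tested, 49 were well above background on all 6 arrays, and 0 passed the adjusted threshold by limma. At an unadjusted p under 0.05 there was 1, Alox15, which entered the test through the saline group alone (1.87% of all genes). The mean was higher with rhTM for 32 of 51 (50.7% of all genes), with a median log2 difference of 0.042, and the groups did not overlap for 0 of them in either direction (2.95% of all genes above and 2.57% below). On rhTM replicate 1, 88.2% were above their own mean, against 51.6% of all genes, and 29 of 51 had their highest value, against 29.8%.
S100a8 and S100a9 encode the chains of calprotectin, which is abundant in the neutrophil cytosol. S100a8 was 306, 235 and 272 in saline and 305, 257 and 306 in rhTM, a log2 difference of 0.098 (SE 0.148). S100a9 was 531, 439 and 476 in saline and 527, 428 and 522 in rhTM, a difference of 0.029 (SE 0.141). Both groups overlapped for each gene, whereas by the table the rhTM arrays of S100a8 were 305, 306 and 306 and its saline arrays 257, 235 and 272, without overlap. Over the list, the table gave 10 of 50 genes above and 4 below without overlap, against 9.68% and 12.0% of all genes.
Of the others, the smallest p values among genes with a higher mean belonged to Hp, haptoglobin (0.29), Ceacam10 (0.31) and Ms4a3 (0.39). Among those with a lower mean they belonged to Alox15, a lipoxygenase, Spi1, which encodes PU.1 (−0.30), and Rac2, a GTPase of the oxidase (−0.13). Alox15 was 0.0211, 0.0692 and 0.0504 in saline and 0.0228, 0.0242 and 0.0141 in rhTM. It was well above background on the 3 saline arrays and on 0 of the rhTM arrays, so its level with rhTM was not well above background. The filter thus kept it through the group in which it was above background, no direction is read from it, and saline replicate 1 lay within the rhTM range.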

How the data were processed

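Lung RNA of 6 mice was read on 1-colour Agilent SurePrint G3 Mouse arrays, 1 per mouse. The authors deposited scanner output, in which the processed signal is a linear intensity, background-corrected within each array by Feature Extraction and not scaled between arrays (the file headers name version 10.7.3.1, the labels 9.1), and a table of the same intensity values in which 2 samples are exchanged. Samples were grouped by their labels. The 56605 probes, less 398 flagged as outliers, were scaled as log2 signal minus the array's 75th percentile. Accessions of 32994 probes matched a RefSeq gene table (GRCm38.p6). Probes were kept if well above background throughout either group, and the probe with the highest mean signal stood for its gene. The rhTM and saline arrays were compared by limma 3.58.1 (lmFit and eBayes, R 4.3.3), with p-values adjusted over all genes by Benjamini-Hochberg and called at 0.05. The fit was tested on simulated data. The methods' thresholds were run as an alternative, as were other background corrections, scalings, filters, blocks, probe rules and each array left out. Normexp (offset 50) used median spot signals. Values on every array are given for genes with the 5 smallest unadjusted p by either assignment, the 3 highest and 3 lowest differences, the 3 largest SDs, and Mpo, Elane, S100a8 and S100a9. Genes shown with array values beyond these were chosen after their values were seen. The genes, lists and rules were chosen with earlier results of these data known. The labels do not say more of separate housing or litters than 1 mouse per array, so p-values measure the spread between these mice. The small number of arrays limits the precision.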

Additional observations from a re-analysis of the deposited data

How the results depend on the processing

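0 of the 40 genes were called under normexp, scaling to the 75th percentile of probes above background, quantile normalization, each filter, the mean of a gene's probes, the slide block, the methods' t-test, the authors' value table, or the scanner files without each array in turn. Calls appeared in 2 other settings. With a slide block on the table's values, 1 was called, 34 genes were higher (51.8% of all genes), 3 lay above (9.68%) and 2 below (12.0%) without overlap, and the median difference was 0.221 (other neutrophil genes 0.290). By the table without rhTM replicate 1, Elane (3.75) and Itgam (0.74, adjusted p = 0.0174) were called higher. Groups not overlapping numbered 3 above and 2 below by the table, 5 and 4 without both exchanged arrays (20.0% and 21.5% of all genes), and 1 below with the percentile of probes above background (3.65%) or the mean of probes (3.44%). With 1 array left out, in either assignment, called genes ranged from 0 to 2 (at most 2.71% of all genes called higher), higher means from 11 (50.1% of all genes in that setting) to 29 (51.6%), genes without overlap from 0 to 8 above (13.2% at the highest count) and from 0 to 14 below (27.1%), and the median from −0.149 to 0.118 (other neutrophil genes −0.117 to 0.131). The fit with the replicate number as a block called 0 genes with 24 higher; the samples share only a number, since deviations of same-numbered arrays correlated at −0.30, 0.44 and −0.45 for numbers 1, 2 and 3, and not every array correlated best with its own number.

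By the scanner files none of the single differences passed the test, and many changed sign. By the table they became Alox5ap (−0.061), Cd177 (0.055), Clec4e (−0.062), Csf3r (−0.017), Ctsg (−0.14), Cyba (−0.028), Elane (2.54), G0s2 (−0.13), Gda (−0.18), Ltb4r1 (−0.031), Ltf (0.046), Ncf4 (0.039), Prtn3 (0.061), Serpinb1a (−0.11), Slpi (−0.19), Trem1 (0.24) and Trem3 (−0.11). Without both exchanged arrays they became Alox5ap (−0.0038), Clec4e (−0.025), Ctsg (−0.10), Elane (1.87), G0s2 (−0.016), Gda (−0.040), Ncf4 (0.0030), Serpinb1a (−0.029), Slpi (−0.095), Trem1 (0.17) and Trem3 (−0.030). By the table with the slide block they became Asprv1 (0.39), Cd177 (0.098), Cxcr2 (0.014), Cybb (−0.13), Elane (0.12), G0s2 (−0.22), Itgb2 (0.0088), Ltf (0.24), Ncf4 (0.25), Padi4 (0.063), Pglyrp1 (0.15), Prtn3 (0.070), Stfa3 (0.41) and Trem1 (0.35). Quantile normalization gave Alox5ap (−0.020), Chil1 (−0.0099), Clec4e (−0.0029), Csf3r (−0.024), Fpr1 (−0.0064) and Slpi (−0.0063), normexp gave Clec4e (−0.00040) and Ctsg (−0.0097), the percentile of probes above background gave Ctsg (−0.021), and the mean of probes gave Cybb (−0.070) and Trem1 (0.038). With 1 array left out, in either assignment, the range of a difference crossed 0 for 35 genes: Alox5ap −0.33 to 0.28, Asprv1 −0.35 to 0.20, Camp −0.22 to 0.80, Cd177 −0.31 to 0.25, Chil1 −0.018 to 0.26, Clec4d −0.17 to 0.43, Clec4e −0.19 to 0.15, Csf2rb −0.36 to 0.053, Csf3r −0.072 to 0.11, Ctsg −0.36 to 0.19, Cxcr2 −0.13 to 0.037, Cyba −0.22 to 0.24, Cybb −0.045 to 0.13, Elane −1.27 to 3.75, Fpr1 −0.0042 to 0.11, Fpr2 −0.019 to 0.28, G0s2 −0.23 to 0.21, Gda −0.46 to 0.34, Hdc −0.042 to 0.61, Itgam −0.20 to 0.74, Lrg1 −0.25 to 0.41, Ltb4r1 −0.37 to 0.41, Ltf −0.49 to 0.37, Mpo −0.16 to 0.59, Ncf4 −0.16 to 0.15, Ngp −0.085 to 0.43, Padi4 −0.39 to 0.0058, Pglyrp1 −0.23 to 0.041, Prtn3 −0.36 to 0.22, Retnlg −0.13 to 0.40, Serpinb1a −0.22 to 0.13, Slpi −0.37 to 0.25, Stfa3 −0.33 to 0.25, Trem1 −0.13 to 0.33, Trem3 −0.41 to 0.33. The cause of these changes was not tested. With 3 arrays a group, the number of arrays limits the precision, and all 40 genes were well above background.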
